A study of Mus musculus with 10 samples.

Results

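Solute carriers are the membrane proteins, named Slc in the mouse, that move ions, amino acids, sugars, vitamins, nucleotides and metabolites across the membranes of cells and organelles. A total of 149 Slc symbols are described here, out of 373 that match the naming pattern and 24411 genes in the tables. They were chosen by their level: a symbol had to begin with Slc, a family number and a letter, and to reach a mean of at least 1 FPKM, a level scaled to transcript length and library total, over all 10 libraries. The glucose transporter genes Slc2a1 and Slc2a3 also passed and were left out by the rule. Of the remaining symbols, 32 had no counts in any library and 190 had counts but a mean under 1 FPKM. Just inside the threshold lay Slc40a1 at 1.01, Slc38a10 at 1.06 and Slc9a8 at 1.10 FPKM, and just outside it Slc35e1 at 0.994, Slc5a3 at 0.952 and Slc27a3 at 0.951 FPKM. Of the 149 members, 133 reached a mean of 1 FPKM in both groups, 10 only in Mettl3-ASO and 6 only in ASO-Control.

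The libraries were made from pools of 10 mouse morulae, the cleavage stage before the blastocyst, derived from oocytes of superovulated females that were fertilized in vitro and cultured in KSOM medium to 72 h after insemination. Zygotes received an injection at 3 to 6 h of antisense oligonucleotides, short nucleic acids that pair with a transcript, of which one kind was directed at Mettl3 (Mettl3-ASO, 5 libraries) and the other was non-targeting (ASO-Control, 5 libraries). The protein METTL3 catalyses the addition of N6-methyladenosine (m6A) to RNA, and the series asks what it does for mitochondria and chromatin before implantation. The strain is given as ICR for replicates 1 and 2 of each group, which carry no batch tag, and is not given for replicates 3 to 5, which are tagged batch 2. No uninjected embryos were analysed here, so what the injection itself changes is shared by both groups.

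The carriers of the inner mitochondrial membrane form one large family, Slc25, which exchanges ADP for ATP, imports phosphate and moves keto acids, amino acids and cofactors. In the plasma membrane, amino acid carriers of the Slc1, Slc6, Slc7 and Slc38 families feed protein synthesis, and some of them take up osmolytes in cleavage embryos. Ion carriers set pH and volume and bring in metals, and other families carry sugars, lactate and pyruvate, vitamins and nucleosides. Slc35 proteins sit in the endoplasmic reticulum and Golgi, where several of them import nucleotide sugars.

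Depth, as summed expected counts, ran from 9905830 to 13530284 in libraries without a batch tag and from 21412857 to 32327283 in batch 2, and the members held 0.435% to 0.663% of them. Mettl3 stood at 10.6, 12.7, 6.58, 7.77 and 6.62 FPKM in ASO-Control replicates 1 to 5 and at 0, 0, 0, 0.04 and 0.03 in Mettl3-ASO replicates 1 to 5. Of 12 morula markers, 11 were tested, of which 2 rose and 5 fell, where 25.4% and 24% of all tested genes did. Dppa3, Dppa4, Nanog and Pou5f1 had control means of 21960, 506, 93.9 and 75.9 FPKM. On the log2 scale Nanog rose by 1.07 ± 0.27 and Dppa3 by 0.62 ± 0.09. Falls were in Krt18 (2.71 ± 0.38), Gata3 (2.19 ± 0.37), Krt8 (2.125 ± 0.37), Cdx2 (1.15 ± 0.43) and Pou5f1 (0.64 ± 0.15). Markers of follicle cells summed to 1.78 to 4.32 FPKM in ASO-Control and 2.82 to 7.27 in Mettl3-ASO, with Amh, Has2 and Cyp19a1 at 0 in all libraries, and the 1 of 11 that was tested, Amhr2, rose by 0.80 ± 0.29 (adjusted p = 0.0374). Sperm markers summed to at most 3.04 FPKM. Markers of the 2-cell stage summed to 3.62 to 19.4 FPKM in ASO-Control and 1122 to 3925 in Mettl3-ASO. All 11 of them rose (median log2 change 7.64), and their part in the carrier results was not tested. Since the labels do not say whether the pools came from separate fertilizations, a p-value here reflects variation among libraries that may be technical.

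Nearly as many carriers differed between the groups as genes at large, and they moved in both directions. Of the 149 members, 30 rose and 41 fell in Mettl3-ASO, and 78 did not pass the test. Together 47.7% of members were called, against 49.4% of all 9522 tested genes. Calls were made where the adjusted p was below 0.05. By direction, 20.1% of members rose against 25.4% of all tested genes, and 27.5% fell against 24%. The median log2 fold change of the members was −0.11 (0.01 over all tested genes). A change of at least 2-fold was called in 18 members that rose and 12 that fell, 20.1% of the 149 in all, where 22.1% of tested genes made such a change, 13.4% up and 8.67% down. In 39 members, 26.2%, the FPKM values of the groups did not overlap (25.6% of all tested genes), with Mettl3-ASO above in 21 (15% of all tested genes) and ASO-Control above in 18 (10.6%). The counts over members partly follow from the rule, since a carrier near 0 in one group had to be high in the other to enter. Of the 133 that reached 1 FPKM in both groups, 22 rose and 38 fell. The same count over all genes was not made, so these numbers have no share to be set beside. All 71 called members had one sign in the untagged libraries and in batch 2. This partly follows from the call, which was made on both sets together, and the same share over all called genes was not counted. Fitted alone, the untagged libraries gave 6 members that rose and 4 that fell, where 6.26% of all tested genes were called, 3.79% up and 2.47% down. Batch 2 alone gave 27 that rose and 34 that fell, where 39% of all tested genes were called, 20.2% up and 18.9% down. The edgeR interaction of group and set of libraries was called in 0 members (3 at an unadjusted p under 0.05) and in 0% of all tested genes. The Mettl3-ASO library nearest to the controls of its own set was replicate 1 for 28 of the 71 called members and replicates 2 to 5 for 16, 15, 8 and 4. Without replicate 1 of Mettl3-ASO, 32 members rose and 41 fell. Each library pools whole embryos, so fewer cells of a type and less RNA per cell cannot be told apart.

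**Figure D1:**
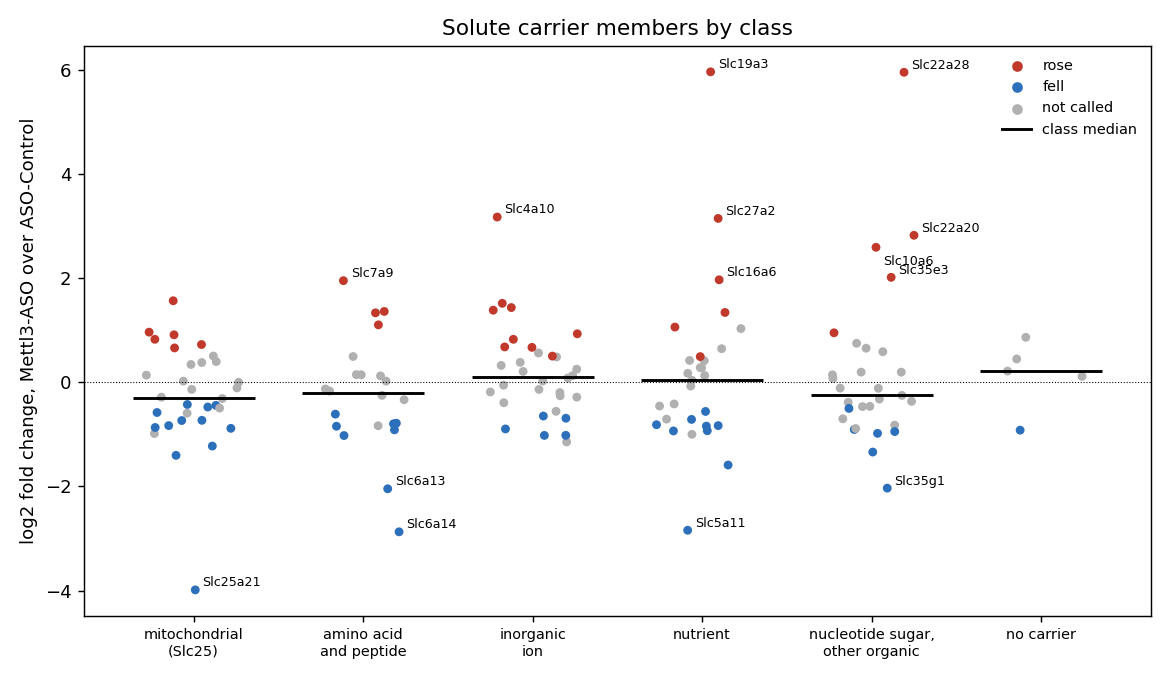
Log2 fold change (vertical axis) of each of the 149 members by class (horizontal axis), with 1 point per gene. Red points rose, blue points fell, grey points did not pass the test, and black bars are class medians, from −0.30 in the Slc25 family to 0.21 in the 5 symbols that name no carrier. Names mark changes beyond 1.9 on the log2 scale.

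The share of members called in each direction varied by class. Among mitochondrial carriers 6 of 32 rose and 12 fell (37.5% fell, beside 24% of all tested genes). In the amino acid and peptide class 4 of 22 rose and 8 fell (36.4%). Inorganic ion carriers went the other way in their counts, with 9 of 32 rising (28.1%, beside 25.4%) and 5 falling (15.6%). Nutrient carriers had 6 of 29 rising and 9 falling (31.0%), and nucleotide sugar and other organic carriers 5 of 29 rising and 6 falling (20.7%). The class medians were −0.30, −0.21, 0.10, 0.04 and −0.25 in that order. These are descriptions, and differences between classes were not tested. The median of the nutrient class was −0.05 with limma on log2(FPKM + 1) and ran from −0.189 to 0.105 over all settings, so it has no stable sign. With a mean of at least 5 FPKM the mitochondrial median turned to 0.078 (7 of 21 rose and 6 fell) and that of all members to 0.004. The other 5 members carry an Slc symbol without being carriers (adaptor, opposite-strand and pseudogene names), and of these Slc9a3r1, a scaffold protein that binds exchangers and receptors, fell by 0.92 ± 0.22 (adjusted p = 0.00433).

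Promoters of 5 members are shown, chosen because these genes are named for the size or firmness of their change or for their level: Slc19a3 and Slc25a28 rose, and Slc6a14, Slc25a21 and Slc25a5 fell. The sequences are RefSeq promoters on GRCm38.p6, 250 bases before to 50 after the start, 5′ to 3′ along the gene. Capitals mark letters matched by any of 7 motifs searched on both strands, each spelled out with its share of promoters.
Slc19a3 (chr1:83038399-83038698, minus strand): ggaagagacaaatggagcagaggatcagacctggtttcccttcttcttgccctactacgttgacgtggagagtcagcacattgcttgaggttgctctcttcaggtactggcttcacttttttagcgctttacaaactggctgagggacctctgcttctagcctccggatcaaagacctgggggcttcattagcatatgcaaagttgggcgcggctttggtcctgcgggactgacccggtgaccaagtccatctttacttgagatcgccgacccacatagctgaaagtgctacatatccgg
Slc25a28 (chr19:43674832-43675131, minus strand): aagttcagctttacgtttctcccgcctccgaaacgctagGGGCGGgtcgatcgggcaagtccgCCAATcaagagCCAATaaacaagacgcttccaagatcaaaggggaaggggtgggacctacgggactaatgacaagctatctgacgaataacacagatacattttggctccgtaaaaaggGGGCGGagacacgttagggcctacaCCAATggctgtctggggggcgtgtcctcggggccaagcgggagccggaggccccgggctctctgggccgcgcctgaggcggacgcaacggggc
Slc6a14 (chrX:21714650-21714949, plus strand): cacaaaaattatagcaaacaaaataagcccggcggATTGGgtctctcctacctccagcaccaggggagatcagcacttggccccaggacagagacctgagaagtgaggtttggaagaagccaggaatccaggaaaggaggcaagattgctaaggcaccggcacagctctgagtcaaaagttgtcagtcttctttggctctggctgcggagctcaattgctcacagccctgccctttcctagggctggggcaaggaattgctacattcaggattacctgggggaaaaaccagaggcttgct
Slc25a21 (chr12:57197423-57197722, minus strand): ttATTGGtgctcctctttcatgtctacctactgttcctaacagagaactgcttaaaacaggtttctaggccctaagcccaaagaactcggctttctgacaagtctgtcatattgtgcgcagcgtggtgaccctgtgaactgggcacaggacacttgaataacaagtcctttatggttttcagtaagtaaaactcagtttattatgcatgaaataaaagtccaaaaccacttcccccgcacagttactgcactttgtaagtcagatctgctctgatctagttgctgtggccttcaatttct
Slc25a5 (chrX:36795347-36795646, plus strand): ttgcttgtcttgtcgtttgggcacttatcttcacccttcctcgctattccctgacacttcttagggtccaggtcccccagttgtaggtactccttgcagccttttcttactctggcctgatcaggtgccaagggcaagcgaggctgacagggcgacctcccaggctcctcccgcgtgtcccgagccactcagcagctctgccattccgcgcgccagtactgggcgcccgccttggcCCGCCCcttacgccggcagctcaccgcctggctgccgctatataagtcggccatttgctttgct
No searched letters lay in the window of Slc19a3, while that of Slc25a28 held 3 CCAAT boxes and 2 GC boxes. The windows of Slc6a14 and Slc25a21 each held 1 CCAAT box, on the reverse strand, and that of Slc25a5 held 1 GC box. RefSeq promoters were matched for 113 of the 149 members and 7279 tested genes, 1 window per gene. A GC box (the letters GGGCGG or their reverse) was present in 71.7% of member promoters, 64.2% of those of all tested genes and 35.9% of all 27025 promoters. Among the Slc25 family it was in 22 of 25, or 88.0%. The CCAAT box, spelled as its name, was in 5 of 20 promoters of members that rose, 17 of 35 of those that fell and 15 of 58 of those not called, beside 40.2% of tested genes and 37.9% of all promoters. E-boxes, with the letters CACGTG, were in 14.2% of member promoters and 10.9% of those of tested genes (7.24% of all). The core of the NRF1 motif, searched as GCGCATG, was in 7.08% and 8.27% (4.04% of all). A TATA box, searched as TATAAA, was in 6.20% and 7.12% (14.2% of all). The cyclic AMP response element, with the letters TGACGTCA, was in 1.77% of member promoters and 3.94% of those of tested genes (1.88% of all), which compares with 1.77% and 0.604% (0.929% of all) for the amino acid response element TGATGCAA. These 7 motifs do not contain one another.

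Mitochondrial carriers were 4 of the 5 highest members in controls. By FPKM, which is scaled to length, the 3 highest carriers of control morulae were Slc25a5, Slc25a3 and Slc25a4, with means of 1203 ± 97.8, 485 ± 34.5 and 295 ± 131 FPKM (SD, n = 5). All 3 fell. Slc25a5 encodes the main ADP/ATP exchanger of dividing cells. Its level was 1317, 1297, 1112, 1168 and 1120.1 FPKM in ASO-Control replicates 1 to 5 and 906, 794, 841, 711 and 486 in Mettl3-ASO replicates 1 to 5. Every Mettl3-ASO library lay below every control, and Slc25a5 fell by 0.74 ± 0.12 (adjusted p = 0.000393) on the log2 scale, ± for the standard error. Of its 50-base windows, 33.8% also occur in other genes, led by Gm5560, Gm5529 and Slc25a5-ps, so how its reads were divided between copies is uncertain. Slc25a3, the mitochondrial phosphate carrier, had 472, 465, 462, 545 and 479 FPKM in the controls and 381, 375, 404, 351 and 282 after Mettl3-ASO. These groups did not overlap either, and the gene fell by 0.48 ± 0.11 (adjusted p = 0.00334). The exchanger gene Slc25a4 spread widely among controls, with 493, 329, 186, 298 and 168 FPKM against 301, 191, 121, 112 and 113. Its groups overlapped, since replicates 1 and 2 of Mettl3-ASO lay above the lowest controls, and it fell by 0.89 ± 0.16 (adjusted p = 0.00066). The related gene Slc25a31, best known from germ cells, was low and fell from 3.25 ± 0.818 to 1.41 ± 0.502 FPKM (SD, n = 5).

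The summed level of the family was lower, while that of its other members overlapped between groups. TMM-scaled CPM over all 32 Slc25 members summed to 3025, 3000, 2922, 3166 and 3085 in ASO-Control and 2261, 2299, 2413, 2094 and 1768 in Mettl3-ASO. Slc25a3, Slc25a4 and Slc25a5 made up 71.4% to 74.2% of that sum in the controls and 60.2% to 67.2% after Mettl3-ASO. The other 29 members summed to 791 to 857 in ASO-Control and 704 to 834 in Mettl3-ASO, and these ranges overlapped. Slc25 counts were 49.5% to 54.9% of all member counts in controls and 37.7% to 48.1% in Mettl3-ASO.

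**Figure D2:**
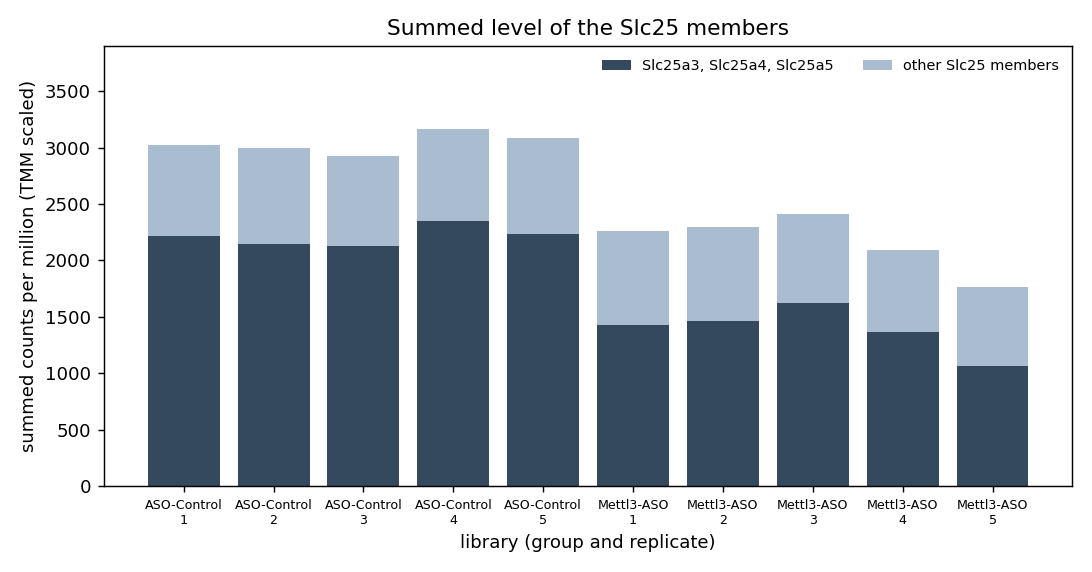
Summed TMM-scaled CPM of the 32 Slc25 members (vertical axis) in each library (horizontal axis, group and replicate), split into Slc25a3, Slc25a4 and Slc25a5 (dark) and the other 29 (light). The dark part runs from 2131 to 2349 in ASO-Control and from 1064 to 1622 in Mettl3-ASO, while the light part overlaps between groups.

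Carriers of metabolites and cofactors in the same membrane moved both ways. The largest fall among the members was in Slc25a21, which carries 2-oxoadipate of lysine breakdown. It stood at 4.64, 5, 4.65, 3.74 and 5.23 FPKM in ASO-Control and 0.06, 1.13, 0.3, 0.02 and 0.22 in Mettl3-ASO. No library of the groups overlapped, and the fall was 3.99 ± 0.64 (adjusted p = 0.000292), resting on 1169 counts in the controls and 57 after Mettl3-ASO. The mean of Slc25a21 reached 1 FPKM only in ASO-Control, so the rule kept the gene because it was high there. Slc25a39, needed for glutathione in the matrix, had 106, 85.5, 61.5, 75.3 and 66.5 FPKM in the controls and 70.6, 22.7, 32.6, 23.9 and 13.3 after Mettl3-ASO. Replicate 1 of Mettl3-ASO lay inside the control range and the other 4 below it, with a fall of 1.41 ± 0.27 (adjusted p = 0.000975) over all libraries. Slc25a28, mitoferrin 2, which imports iron, changed the other way. Its controls had 5.79, 4.32, 5.13, 4.93 and 4.01 FPKM and its Mettl3-ASO libraries 17.2, 16.7, 12.2, 15.9 and 12.1. The groups did not overlap, and the rise was 1.56 ± 0.18 (adjusted p = 2.17e-05). Slc25a32, a folate and flavin carrier, rose by 0.91 ± 0.15 (adjusted p = 0.000384), from 4.47 ± 0.58 to 8.66 ± 0.976 FPKM (SD, n = 5). Slc25a44, for branched-chain amino acids, rose from 11.2 ± 2.59 to 22.7 ± 6.44 FPKM and Slc25a51, for NAD, from 4.99 ± 0.756 to 9.13 ± 1.58 (SD, n = 5). In these 3 genes every Mettl3-ASO library was above every control. The glycine carrier gene Slc25a38 also rose, by 0.66 ± 0.17 (adjusted p = 0.00655).

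**Figure D3:**
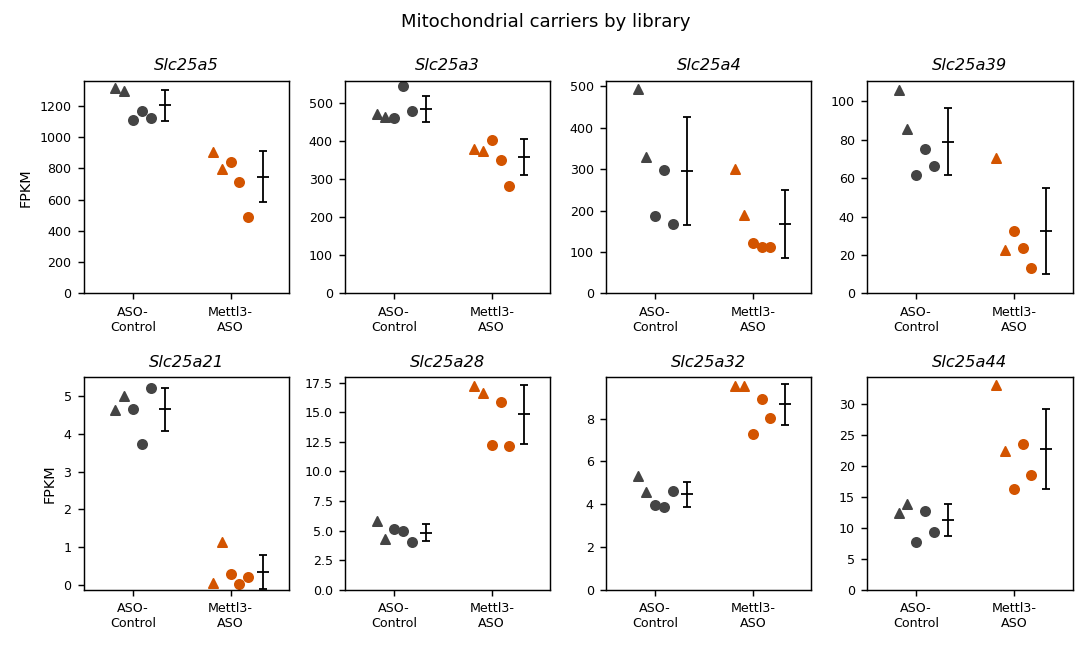
FPKM (vertical axes, linear) of 8 mitochondrial carriers in ASO-Control (grey) and Mettl3-ASO (orange). Triangles are untagged replicates 1 and 2, circles are replicates 3 to 5 of batch 2, and the bar beside each group is the mean ± SD (n = 5). Slc25a28, Slc25a32 and Slc25a44 lie higher in all Mettl3-ASO libraries, and Slc25a5, Slc25a3 and Slc25a21 lower.

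The 2 aspartate/glutamate carriers of the malate-aspartate shuttle differed in direction: Slc25a12 rose by 0.72 ± 0.23 (adjusted p = 0.0186) and Slc25a13 fell by 0.87 ± 0.25 (adjusted p = 0.0117). Other falls were smaller or in low genes. The dicarboxylate carrier gene Slc25a10 fell by 0.83, the ATP-Mg/phosphate carrier gene Slc25a24 by 0.73, Slc25a14 by 0.43 and Slc25a17, whose product sits in peroxisomes, by 0.45. Adjusted p ran from 0.0117 to 0.0447 in these 4. Slc25a20, the carnitine/acylcarnitine carrier of fatty acid oxidation and the fourth in level among the members, had 113 ± 19.6 FPKM in controls and 119 ± 27.2 in Mettl3-ASO (SD, n = 5), with a log2 fold change of 0.02 ± 0.14 (adjusted p = 0.922). Slc25a26, which imports the methyl donor S-adenosylmethionine, had one of −0.11 ± 0.28 (adjusted p = 0.764). The citrate carrier gene Slc25a1 had −0.99 ± 0.41 (adjusted p = 0.0592). In Mettl3-ASO it read 5.41 FPKM in replicate 1 and 0.38 to 1.26 in the others, and without replicate 1 it passed at −1.38 (adjusted p = 0.0158). All libraries together passed with DESeq2 (adjusted p = 0.0324) and without the filter on low values (adjusted p = 0.0192). The iron importer gene Slc25a37 is a non-member, with a mean below 1 FPKM.

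Among amino acid carriers the largest change was a fall of Slc6a14, which takes up neutral and cationic amino acids with sodium and chloride. It had 25.6, 36.5, 30.5, 20 and 23.6 FPKM in ASO-Control and 3.54, 1.38, 7.06, 4.35 and 3.64 in Mettl3-ASO. The groups stood far apart, and the level was 7.33-fold lower (log2 −2.87 ± 0.33, adjusted p = 2.31e-05). Slc6a13, a carrier of GABA, taurine and betaine, had 11.6, 9.87, 7.41, 7.93 and 4.87 FPKM against 4.13, 0.62, 2.04, 1.85 and 1.62, again without overlap, and fell by 2.05 ± 0.34 (adjusted p = 0.000339). The taurine carrier gene Slc6a6 fell by 0.79 ± 0.15 (adjusted p = 0.000986). Thus 3 of 5 Slc6 members fell and none of them rose, where 24% of all tested genes fell and 25.4% rose. The creatine carrier gene Slc6a8 had a log2 change of 0.49 ± 0.24 (adjusted p = 0.101), and Slc6a15 one of −0.13 ± 0.23 (adjusted p = 0.661). The glycine transporter gene Slc6a9 did not reach the level of the rule.

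Sodium-coupled neutral carriers of the Slc38 family were lower in 4 of 8 members and higher in 1, where 24% of all tested genes fell and 25.4% rose. Slc38a4, the most abundant of them, had 23.1, 23.2, 19.9, 13 and 15.8 FPKM in ASO-Control and 11, 11.9, 10.7, 8.75 and 8.99 in Mettl3-ASO. All Mettl3-ASO libraries lay below all controls, with a fall of 0.92 ± 0.15 (adjusted p = 0.000365). Slc38a1 and Slc38a2, which take up glutamine and alanine, fell by 1.03 ± 0.30 (adjusted p = 0.0122) and 0.85 ± 0.24 (adjusted p = 0.0106). Their means were at most 2.24 FPKM, and neither was called in batch 2 alone (adjusted p = 0.0801 and 0.09). Slc38a9, the lysosomal arginine sensor of the mTORC1 pathway, fell by 0.80 ± 0.23 (adjusted p = 0.0124). Its mean reached 1 FPKM only in ASO-Control, so the rule kept it because it was high there. Slc38a11 rose by 1.36 ± 0.49 (adjusted p = 0.0341), although replicate 3 of ASO-Control, at 5.76 FPKM, was inside the Mettl3-ASO range.

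The Slc1 family split. Slc1a1, the glutamate and aspartate carrier and the highest amino acid carrier of control morulae, had 42.8, 58.3, 41.6, 43.1 and 37.6 FPKM in ASO-Control and 37.4, 36.9, 26.6, 23.9 and 27.4 in Mettl3-ASO. The groups met without overlapping, the lowest control at 37.6 and the highest Mettl3-ASO library at 37.4, and Slc1a1 fell by 0.61 ± 0.12 (adjusted p = 0.00125). Exons of 4430402I18Rik on the other strand cover 31.9% of its exon bases, and the strand setting of the counting is not known here. Slc1a5, the glutamine carrier, had 5.75, 4.04, 2.37, 2.43 and 1.75 FPKM against 12.2, 7.9, 5.63, 6.46 and 7.84. Only the highest control, replicate 1, reached into the Mettl3-ASO range, and Slc1a5 rose by 1.33 ± 0.20 (adjusted p = 0.000205). The heavy chain gene Slc3a2 and the light chain genes Slc7a5 and Slc7a6, whose products pair as exchangers of large neutral and cationic amino acids, did not pass the test. Their log2 fold changes were 0.14 ± 0.17 (adjusted p = 0.504), 0.14 ± 0.27 (adjusted p = 0.681) and −0.17 ± 0.14 (adjusted p = 0.311), and that of Slc3a2 was −0.02 without Mettl3-ASO replicate 2. The cystine light chain gene Slc7a9 rose from 0.534 ± 0.233 to 2.08 ± 0.815 FPKM (SD, n = 5) and the lysosomal peptide and histidine carrier gene Slc15a4 from 2.14 ± 0.735 to 4.72 ± 1.24 (SD, n = 5).

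Of the ion carriers, Slc12a2, the sodium-potassium-chloride cotransporter that loads cells with chloride, had the largest rise in FPKM. It stood at 15.1, 18.9, 11.1, 14.9 and 11.8 FPKM in ASO-Control and 25.7, 51.5, 28.9, 43.1 and 46 in Mettl3-ASO. Every Mettl3-ASO library was above every control, 2.7-fold higher in counts (log2 1.43 ± 0.22, adjusted p = 0.000206). Bicarbonate-family members rose too: Slc4a10 by 3.17 ± 0.59 (adjusted p = 0.000818) from a control mean of 0.35 FPKM, and Slc4a11 by 0.82 ± 0.16 (adjusted p = 0.00125). Slc9b1, of a sodium/proton exchanger branch, rose by 0.50 ± 0.17 (adjusted p = 0.0249), and Slc8b1, the sodium/calcium exchanger of mitochondria, by 0.67 ± 0.18 (adjusted p = 0.00833). Slc26a11, an anion carrier, rose by 1.51 ± 0.36 (adjusted p = 0.00372), and the phosphate carrier gene Slc20a1 fell by 0.65 ± 0.17 (adjusted p = 0.00613).

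Metal carriers moved both ways. The copper importer gene Slc31a1 had 25, 22.2, 21.7, 21.8 and 20.4 FPKM in ASO-Control, a narrow range, and 18.3, 12.3, 10.2, 10.3 and 7.38 in Mettl3-ASO. It fell by 1.02 ± 0.15 (adjusted p = 0.000185) with no overlap. Zinc carriers were 15 of the members, 7 of the Slc30 family, which moves zinc out of the cytosol, and 8 of the Slc39 family, which moves it in. Of the Slc39 members, Slc39a6 rose by 1.38 ± 0.22 (adjusted p = 0.000283) from 2.14 ± 0.712 to 5.71 ± 0.713 FPKM (SD, n = 5), Slc39a1 rose by 0.93 ± 0.18 (adjusted p = 0.000984), Slc39a9 fell by 0.90 ± 0.22 (adjusted p = 0.0045) and 5 were not called. In the Slc30 family 1 rose, 1 fell and 5 were not called. These 2 were Slc30a5 and Slc30a6, whose products pair as a zinc carrier of the early secretory pathway. Slc30a5 had 13, 11.7, 9.31, 11 and 7.92 FPKM in ASO-Control and 20.9, 17, 14.4, 17.4 and 16.8 in Mettl3-ASO. Slc30a6 had 45.6, 66.7, 59.7, 53.5 and 56.9 and 27.2, 39.1, 38.4, 33.2 and 41.6 FPKM. Neither gene's groups overlapped: Slc30a5 rose by 0.68 ± 0.13 (adjusted p = 0.00109) and Slc30a6 fell by 0.69 ± 0.17 (adjusted p = 0.00396). By mean FPKM Slc30a6 was above Slc30a5 in both groups, with 56.5 against 10.6 in controls and 35.9 against 17.3 in Mettl3-ASO. By mean FPKM Slc30a6 was the highest ion carrier of controls. Slc24a5, the next highest, had a log2 change of −0.39 ± 0.22 (adjusted p = 0.148), and exons of Myef2 on the other strand cover 39.5% of its own.

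**Figure D4:**
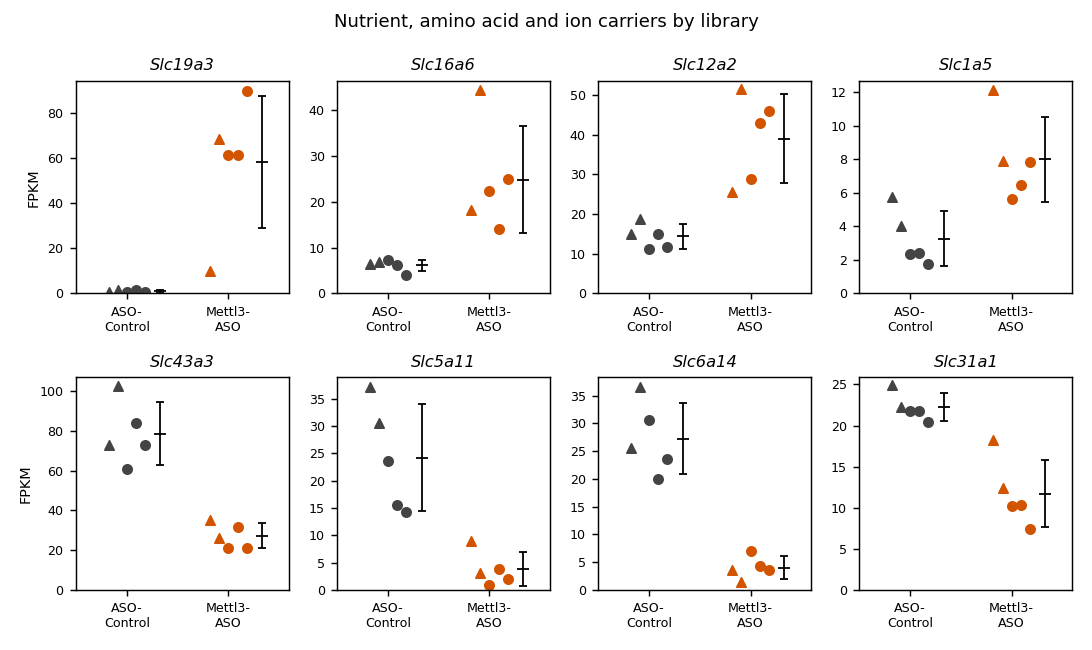
FPKM (vertical axes, linear) of 8 nutrient, amino acid and ion carriers in ASO-Control (grey) and Mettl3-ASO (orange), with triangles for untagged replicates 1 and 2, circles for replicates 3 to 5 of batch 2 and the mean ± SD (n = 5) beside each group. Slc19a3 is at most 1.64 FPKM in controls and 9.89 to 89.9 in Mettl3-ASO. Of these genes only Slc1a5 has groups that overlap.

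Slc19a3, a thiamine transporter gene, had the largest estimated fold of the members, close to that of Slc22a28. It had 0.4, 1.53, 0.61, 1.64 and 0.45 FPKM in ASO-Control and 9.89, 68.8, 61.4, 61.6 and 89.9 in Mettl3-ASO. The lowest Mettl3-ASO library, replicate 1, was above all controls, and the others formed a higher set. The level was 62.1-fold higher in counts (log2 5.96 ± 0.61, adjusted p = 1.11e-05), from 296 control counts to 16679. Without replicate 1 of Mettl3-ASO the log2 value was 6.26. The other thiamine transporter gene of the members, Slc19a2, had 4.61 ± 2.16 and 6.2 ± 1.81 FPKM (SD, n = 5), with a log2 fold change of 0.42 ± 0.26 (adjusted p = 0.2). Slc19a3 lies on chromosome 1 at 83012523 to 83038448 (GRCm38, GENCODE M21), and none of its exon bases overlap exons on the other strand. Its 50-base windows occur in no other annotated gene.

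Monocarboxylate carriers went both ways. Slc16a6, a ketone body carrier, had 6.4, 6.9, 7.19, 6.1 and 4.03 FPKM in ASO-Control and 18.2, 44.3, 22.4, 13.9 and 25 in Mettl3-ASO. It rose by 1.96 ± 0.28 (adjusted p = 0.000119) without overlap, and exons of Amz2 and Arsg on the other strand cover 22.5% of its own. Slc16a1, the lactate and pyruvate carrier, fell by 0.84 ± 0.22 (adjusted p = 0.00639). Its controls ranged from 5.66 to 19.8 FPKM, and Mettl3-ASO replicate 1, at 10.9, lay among them. Slc16a7 did not reach the level of the rule.

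Sugar, polyol and vitamin carriers moved both ways. Slc5a11, a sodium-coupled inositol carrier, had 37.1, 30.6, 23.6, 15.6 and 14.3 FPKM in ASO-Control and 9.01, 3.12, 0.85, 3.87 and 2.05 in Mettl3-ASO. It was 7.18-fold lower with no overlap (log2 −2.84 ± 0.36, adjusted p = 5.23e-05). Slc5a6, the carrier of biotin and pantothenate and the second highest nutrient carrier of controls, had 37.8, 41.2, 36.6, 33.2 and 31.6 against 47.1, 60.6, 44.2, 56.7 and 50.9 FPKM. Its groups did not overlap, and it rose by 0.49 ± 0.13 (adjusted p = 0.00731). In Slc5a6, 13.6% of 50-base windows occur in other genes, led by Gm6157 and Gm9415. The intracellular glucose transporter gene Slc2a8 had a log2 change of −0.71 ± 0.29 (adjusted p = 0.0584), which passed without Mettl3-ASO replicate 1 (−0.98, adjusted p = 0.0148) or 4 (−0.85, adjusted p = 0.0414), with DESeq2 (adjusted p = 0.0245) and without the filter on low values (adjusted p = 0.00281). The folate transporter gene Slc46a1 had one of −0.08 ± 0.18 (adjusted p = 0.753), and the ascorbate carrier gene Slc23a2 fell by 0.83 ± 0.25 (adjusted p = 0.0139).

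Of 4 nucleobase and nucleoside carriers, a set that was not fixed in advance, 3 fell, where 24% of all tested genes did. Slc43a3, which takes up purine nucleobases and is the highest nutrient carrier of controls, had 73, 103, 60.8, 84.2 and 72.7 FPKM in ASO-Control and 35.4, 26.4, 21.3, 31.6 and 21.1 in Mettl3-ASO. Every Mettl3-ASO library lay below every control, 3.01-fold lower in counts (log2 −1.59 ± 0.15, adjusted p = 7.65e-06). The nucleoside carrier genes Slc28a3 and Slc29a1 fell by 0.93 ± 0.24 (adjusted p = 0.00669) and 0.94 ± 0.27 (adjusted p = 0.011). In both genes the groups overlapped, and Slc29a1 was not called in batch 2 alone (adjusted p = 0.188). Slc29a3 had a log2 change of 0.28 ± 0.25 (adjusted p = 0.378). Of the lipid-related carriers, Slc27a2, for very long chain fatty acids, rose by 3.14 ± 0.62 (adjusted p = 0.00118) from a control mean of 0.232 FPKM. The choline carrier gene Slc44a2 fell by 0.82 ± 0.27 (adjusted p = 0.0233), while Slc44a1, Slc44a3 and Slc44a4 were not called.

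In the organelle and organic class, the highest member was Slc35b1, which exchanges ATP and ADP across the endoplasmic reticulum membrane. It had 102, 118, 126, 86.4 and 101 FPKM in ASO-Control and 64.2, 109, 70.7, 66.8 and 75.1 in Mettl3-ASO. The groups overlapped through Mettl3-ASO replicate 2, and the fall of 0.50 ± 0.18 (adjusted p = 0.0361) was lost (adjusted p from 0.0551 to 0.103) when any of 7 libraries was left out, ASO-Control replicates 2, 3 and 5 and Mettl3-ASO replicates 1, 3, 4 and 5. Of 19 Slc35 members, 4 fell, 2 rose and 13 were not called, where 24% of all tested genes fell and 25.4% rose. Slc35f5, a less studied relative, fell by 1.34 ± 0.18 (adjusted p = 8.73e-05), and Slc35b3, which carries the sulfate donor into the Golgi, by 0.91 ± 0.22 (adjusted p = 0.00384). Slc35e3 rose from 2.62 ± 0.625 to 10.7 ± 4.15 FPKM (SD, n = 5), and Slc35d1, for nucleotide sugars of cartilage and other glycans, rose by 0.95 ± 0.21 (adjusted p = 0.00229). Slc35f2 had a log2 change of −0.11 ± 0.14 (adjusted p = 0.526). Slc35g1 had 22.3, 13.3, 14.7, 20.9 and 13.3 FPKM in ASO-Control and 6.13, 3.34, 2.67, 4.68 and 4.6 in Mettl3-ASO. It fell by 2.03 ± 0.22 (adjusted p = 1.74e-05) without overlap. The acetyl-CoA carrier gene Slc33a1 fell by 0.95 ± 0.26 (adjusted p = 0.00932) and the lysosomal sialic acid carrier gene Slc17a5 by 0.98 ± 0.19 (adjusted p = 0.00123). For Slc33a1, opposite-strand exons of Gm26850 cover 32% of its own.

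3 organic anion carriers that were low in control morulae were higher after Mettl3-ASO. Slc22a28 had 0, 0, 0.59, 0 and 0.21 FPKM in ASO-Control and 3.6, 6, 5.46, 11.1 and 24.4 in Mettl3-ASO. All Mettl3-ASO libraries were above all controls, 3 of which were at 0, and the rise was 5.95 ± 0.77 (adjusted p = 6.22e-05), from 42 control counts to 1908. Windows of 50 bases shared with other genes, led by Slc22a30, Slc22a29 and Slc22a27, make up 53.9% of its windows, so the gene of origin is uncertain. Slc22a20 had 1.64, 0.6, 0.76, 2.3 and 0.74 against 6.51, 7.33, 10.8, 9.49 and 9.81 FPKM and rose by 2.82 ± 0.35 (adjusted p = 4.40e-05) without overlap. None of its windows occur in other genes. Slc10a6, a carrier of sulfated steroids, rose by 2.59 ± 0.41 (adjusted p = 0.000257), from 0.998 ± 0.702 to 5.75 ± 2.29 FPKM (SD, n = 5). Slc22a28, Slc10a6 and Slc19a3 are among the 10 members that reached 1 FPKM only in Mettl3-ASO, so the rule kept them because they were high there. The same holds for Slc4a10, Slc7a9, Slc26a11, Slc27a2 and Slc45a3, which also rose, and for Slc25a25 and Slc35a5, which were not called. Slc25a21, Slc23a2 and Slc38a9, which fell, reached that level only in ASO-Control.

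Several families held calls in both directions. Members came from 43 families, 23 of which held at least 2 members and 13 at least 2 called members. Calls in both directions occurred in 10 families. As 25.4% of all tested genes rose and 24% fell, groups of unrelated genes can hold both directions too. Such groups were not counted, so this is no trait shown to be particular to relatives. The pairs plotted here were chosen after their values were seen, and they show opposite calls for the zinc carriers Slc30a5 and Slc30a6, the mitochondrial carriers Slc25a12 and Slc25a13, and the monocarboxylate carriers Slc16a6 and Slc16a1. In the other 3 families with at least 2 called members the calls went one way. Of Slc6 members 3 of 5 fell, beside 24% of all tested genes. In Slc4 2 of 2 and in Slc22 2 of 3 members rose, beside 25.4%. The rises of Slc4 and Slc22 partly follow from the rule. Slc4a10 and Slc22a28 reached 1 FPKM only in Mettl3-ASO, so the rule kept them because they were high there. For Slc22a28, 53.9% of its 50-base windows also occur in other genes.

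**Figure D5:**
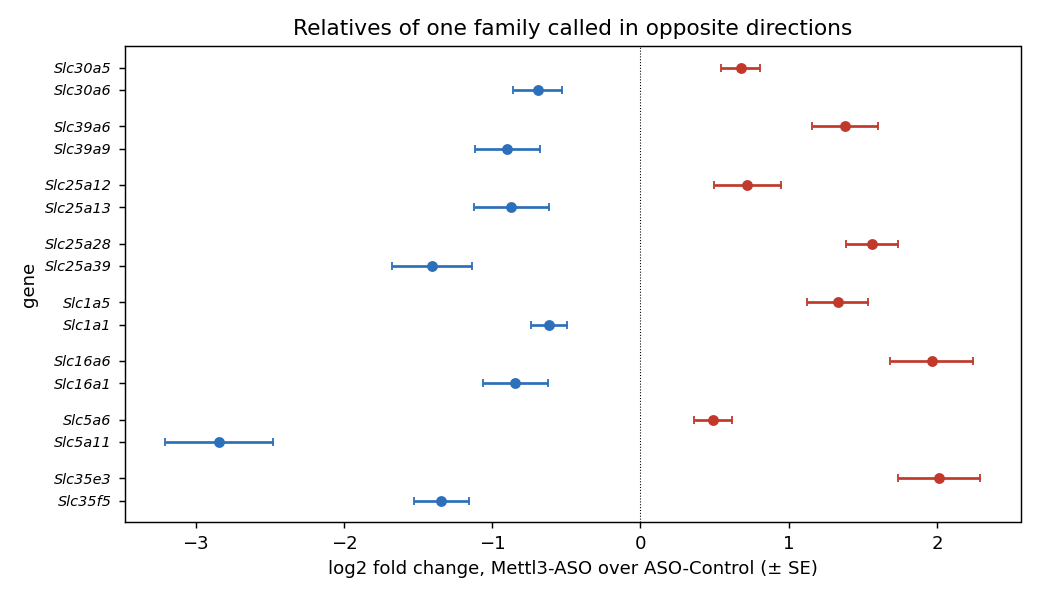
Log2 fold change ± SE (horizontal axis, edgeR, 5 libraries against 5) of 8 pairs of genes (vertical axis), each from one Slc family and called in opposite directions. Red points rose and blue points fell. The widest pair is Slc35e3 at 2.01 and Slc35f5 at −1.34, closely followed by Slc5a6 at 0.49 and Slc5a11 at −2.84.

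Genes that work with carriers without an Slc name moved both ways. Of 33 such genes on a fixed list, 32 were in the tables and 24 were tested, of which 7 rose and 7 fell, where 25.4% and 24% of all tested genes did. The voltage-dependent channels of the outer mitochondrial membrane, which pass what Slc25 carriers move on, fell: Vdac1 by 0.80 ± 0.10, Vdac2 by 0.54 ± 0.12 and Vdac3 by 0.86 ± 0.09, with adjusted p from 1.87e-05 to 0.00266. Mtch2, an outer membrane relative of the family, fell by 1.29 ± 0.15 (adjusted p = 2.56e-05). The subunit genes of the mitochondrial pyruvate carrier rose, Mpc1 by 0.32 ± 0.12 and Mpc2 by 0.74 ± 0.12 (adjusted p = 0.0338 and 0.000396). Bsg, which escorts monocarboxylate carriers to the cell surface, fell from 565 ± 143 to 287 ± 82.7 FPKM (SD, n = 5), or by 1.03 ± 0.17 (adjusted p = 0.000377). Its relative Emb rose by 2.82 ± 0.62 (adjusted p = 0.00253), but stayed far below Bsg, with 0.71 ± 0.585 and 5.09 ± 2.34 FPKM (SD, n = 5). As the control mean of Emb was under 1 FPKM, it was tested because it was high in Mettl3-ASO. Of the beta subunit genes of the sodium pump, which keeps the gradient that sodium-coupled carriers use, Atp1b1 fell by 1.43 ± 0.18 (adjusted p = 5.35e-05) and Atp1b3 had a log2 change of 0.27 ± 0.14 (adjusted p = 0.125). The aquaporin gene Aqp11 rose by 2.27 ± 0.33, and Aqp9 by 0.43 ± 0.16 (adjusted p = 0.000126 and 0.0386).

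The letters GGACT, a common form of the m6A consensus, were counted on the transcript strand of GENCODE M21 transcripts linked to the RefSeq accessions in the tables. A transcript was matched for 148 members and 8813 tested genes. Members that rose had a median of 1.22 occurrences per kilobase (n = 30), those that fell 1.065 (n = 41), and those not called 1.2 (n = 77), beside 1.02 over all tested genes. At least 1 lay after the stop codon in 50%, 68.3% and 71.4% of these member groups and in 57.3% of tested genes. Sites near the stop codon are shown because m6A is known to collect there: those of the 5 named members whose nearest GGACT, in capitals, follows the stop codon most closely.
Slc25a21: aactggtgatGGACTgagaagcgat
Slc1a5: atatcaggagGGACTttctacgccc
Slc25a3: aaagtaacatGGACTgaatctgctt
Slc31a1: aagcatcttgGGACTggaagatatg
Slc35b1: ttgggaaaatGGACTcgggtcatga
The capitals start 2, 11, 18, 49 and 71 bases after the last base of the stop codon, in that order. Of these genes Slc1a5 rose and the other 4 fell, where 25.4% and 24% of all tested genes did. Many named members were chosen for a small p or a large change, so these calls partly follow from that choice. A link between the sites and the calls was not tested. A match is a description of the letters, and methylation was not measured in these files.

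Estimated transcript length, a mean over isoforms that FPKM divides by, was nearly equal in the groups. It differed by more than 5% in 3 members, Slc25a21, Slc44a1 and Slc45a4, by factors of 1.07, 1.11 and 1.09.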

How the data were processed

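RNA was sequenced from 10 libraries of pooled morulae with a SMART-Seq v4 PLUS kit, per the labels' protocols. STAR 2.7.10, RSEM 1.3.3 and mm10 are named in the submitters' processing notes, and the annotation release and the strand setting are not given in the sources used here. Per the file headers, the authors deposited expected counts, in which RSEM shares out reads that map to several genes, with TPM, FPKM and transcript lengths for each gene and library. TPM was not used for any value, although the authors deposited it. After rounding to integers and TMM scaling, the 9522 genes averaging at least 1 FPKM went into edgeR 4.0.16 (R 4.3.3, quasi-likelihood), with batch and group as terms. P-values were adjusted over all tested genes by Benjamini-Hochberg, two-sided, with calls at an adjusted p under 0.05. DESeq2 1.42.0 and limma 3.58.1 on log2(FPKM + 1) were alternatives, and the code was tested on simulated data. Log2 fold changes and SE come from the counts and levels from FPKM, which is relative to the library total.

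The members, classes and lists were chosen with earlier results of these data known. Named genes are, in each class, the 4 with the smallest p and the 2 highest in ASO-Control, the 5 called members that gained most and the 5 that lost most in log2(FPKM + 1), with one sign in both sets of libraries (a ranking that differs from that of the printed fold changes), and 21 genes with known roles. Of these, Slc6a9, Slc16a7, Slc19a1 and Slc25a37 are below the level of the rule, and some named genes are not reported here. All other genes named were chosen after their values were seen. Shared windows of 50 bases, exon overlaps and GGACT letters come from GENCODE M21, and promoters from RefSeq.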

Additional observations from a re-analysis of the deposited data

Results flagged for a closer look

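For the 40 named members, each group of 5 libraries was examined for 1 library whose gap to its nearest neighbour exceeded 0.71 of the group's range, which chance does in about 1 in 20 groups. Of 80 groups, 8 held such a library. In replicate 1 of Mettl3-ASO, Slc16a1 stood at 10.91 FPKM with the others at 3.53 to 5.01. The same library had Slc25a1 at 5.41 FPKM (others 0.38 to 1.26) and Slc46a1 at 31.57 FPKM (others 12.58 to 17.96). In replicate 2 of Mettl3-ASO, Slc25a21 stood at 1.13 FPKM (others 0.02 to 0.3), Slc35b1 at 109.14 (others 64.18 to 75.14) and Slc3a2 at 55.35 (others 32.95 to 38.89). In ASO-Control, Slc1a1 stood at 58.29 FPKM in replicate 2 (others 37.62 to 43.12) and Slc25a3 at 544.97 in replicate 4 (others 461.79 to 479.18).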

How the results depend on the processing

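With DESeq2, limma, median-ratio or upper-quartile scaling and no filter, every count of members or of a class stayed within 1.5 times the reported one. With a mean of at least 5 FPKM, which leaves 75 members, 19 rose and 23 fell (54.5% of all genes tested there were called). Of mitochondrial carriers 7 rose and 6 fell, so the balance turned from 6 and 12. Of amino acid carriers 1 rose and 5 fell, and of ion carriers 5 rose and 3 fell. In the nutrient class 4 fell, and in the organic class 2 rose. Their counts in the other direction are not printed here, although Slc19a3, Slc16a6 and Slc5a6 still rose and Slc35g1 and Slc35f5 still fell. In the untagged libraries alone, which are fewer and shallower, 6 members rose and 4 fell: mitochondrial 1 and 0, amino acid 1 and 1, ion 0 and 0, nutrient 2 and 2, organic 2 and 1. Without a batch term 7 mitochondrial carriers fell. With at least 1 FPKM in ASO-Control alone, 3 organic carriers rose.

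Leaving out 1 library at a time gave 29 to 32 members that rose and 35 to 41 that fell. For rises and falls the ranges were 6 to 7 and 9 to 12 (mitochondrial), 3 to 4 and 8 to 8 (amino acid), 8 to 10 and 5 to 6 (ion), 6 to 7 and 7 to 10 (nutrient), and 5 to 6 and 5 to 7 (organic). Of the 40 named members, 22 were no longer called in the untagged libraries alone and 2 in batch 2 alone. Log2 fold changes that changed sign were of genes not called: Slc25a26 at 0.0032, Slc3a2 at −0.0201 and Slc46a1 at 0.0569 without replicate 2 of Mettl3-ASO, Slc46a1 at 0.0702 in batch 2 alone, and Slc7a5 at −0.0041 without replicate 5 of ASO-Control. Over single left-out libraries these 4 ranged from −0.356 to 0.0032 (Slc25a26), −0.0201 to 0.2668 (Slc3a2), −0.1686 to 0.0569 (Slc46a1) and −0.0041 to 0.2916 (Slc7a5). The cause was not tested. With a replicate block instead of the batch term, 37 members rose and 47 fell, and 55.1% of all tested genes were called. Slc24a5, Slc25a1, Slc2a8 and Slc6a8, not called with the batch term, passed with the block (adjusted p = 0.03, 0.0186, 0.00382 and 0.0154). Deviations of same-numbered libraries correlated at 0.252, 0.252, 0.168, 0.129 and 0.0832. With 2 untagged libraries per group, replicates 1 and 2 give the same value by construction. All were positive but not all above 0.1, the cut used here, so the numbers were not treated as pairs. Whether the numbers mark a shared origin is not known, and these values do not decide it.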
